A study of Mus musculus with 6 samples.

Results

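The clustered protocadherins were followed through the ovaries of mice with ovarian hyperstimulation syndrome (OHSS), with and without the kinase inhibitor nintedanib. The members were chosen by gene symbol, as every row of the count table named Pcdha, Pcdhac, Pcdhb, Pcdhga, Pcdhgb or Pcdhgc plus a number. They came to 58 of the 51826 genes in the table: 14 of the alpha cluster, 22 of the beta cluster and 22 of the gamma cluster. They carry 57 symbols, since Pcdha11 stands under 2 gene IDs. The family was selected from these same libraries because Pcdhb19 had no counts in either ovary library of the nintedanib group, so that zero is the reason for the choice and was given no test.

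Clustered protocadherins are adhesion proteins of the cell surface with cadherin repeats outside the cell, best known from neurons, where each cell carries its own combination of them and like combinations on facing membranes bind one another. In the alpha and gamma clusters a gene name stands for a variable exon with a promoter of its own, whose transcript is spliced to constant exons that the whole cluster shares. A beta gene keeps its coding sequence in its own exon and has no constant exons, and in neurons the architectural protein CTCF, cohesin and DNA methylation take part in the choice among the promoters.

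RNA of whole ovaries from ICR mice, an outbred strain, was sequenced in 6 libraries. The group called OHSS+Nin here held 2 libraries from the OHSS model given nintedanib (bibf1120), which inhibits the receptor kinases of vascular endothelial, platelet-derived and fibroblast growth factors. The group called OHSS held 2 libraries from the same model with no agent named, and the group called COH, an abbreviation left unexplained in the labels, held 2 libraries with no model named. The labels used here name no mutant allele, age, hormone or dose, nor whether a group's libraries stem from different mice, so p-values measure only the spread among these libraries, which may be technical.

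Each library held between 28498435 and 34716751 gene counts, spread over 24712 to 25796 genes. Levels are given as CPM, the gene's count relative to the library's total, scaled between libraries with edgeR's TMM factors of 0.961 to 1.03. Every member of the lists for granulosa cells (10 genes), stroma and theca (11), luteal cells (9) and oocytes (12) had counts in some library. The same held for the neuronal and leukocyte lists, so this does not check the tissue label. Counts came to 144 to 148% of read pairs, so both reads of a pair were probably counted, and a count of 0 was taken to allow up to 3 pairs, or 6 counts, which is 0.169 to 0.210 CPM in a library, for counting error only.

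The 3 clusters differed in abundance. In bulk tissue, fewer cells of a type and less RNA per cell cannot be told apart, and this holds for every level below. The gamma genes took 70.4 to 79.9% of all counts of the family in a library, the beta genes 19.7 to 28.4% and the alpha genes 0.461 to 1.15%. All 14 alpha members averaged under 1 CPM over the 6 libraries and are listed as low, as are the beta members Pcdhb1, with at most 2 counts in a library, and Pcdhb21. The remaining 42 members, 20 beta and all 22 gamma, averaged at least 1 CPM. At that limit, Pcdhb2 stood just inside with a mean of 1.012 CPM and Pcdha4 just outside with 0.592 CPM. The test's own filter on low counts kept 45 members: 21 beta (all but Pcdhb1), the 22 gamma, and Pcdha4 and Pcdha5.

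**Figure D1:**
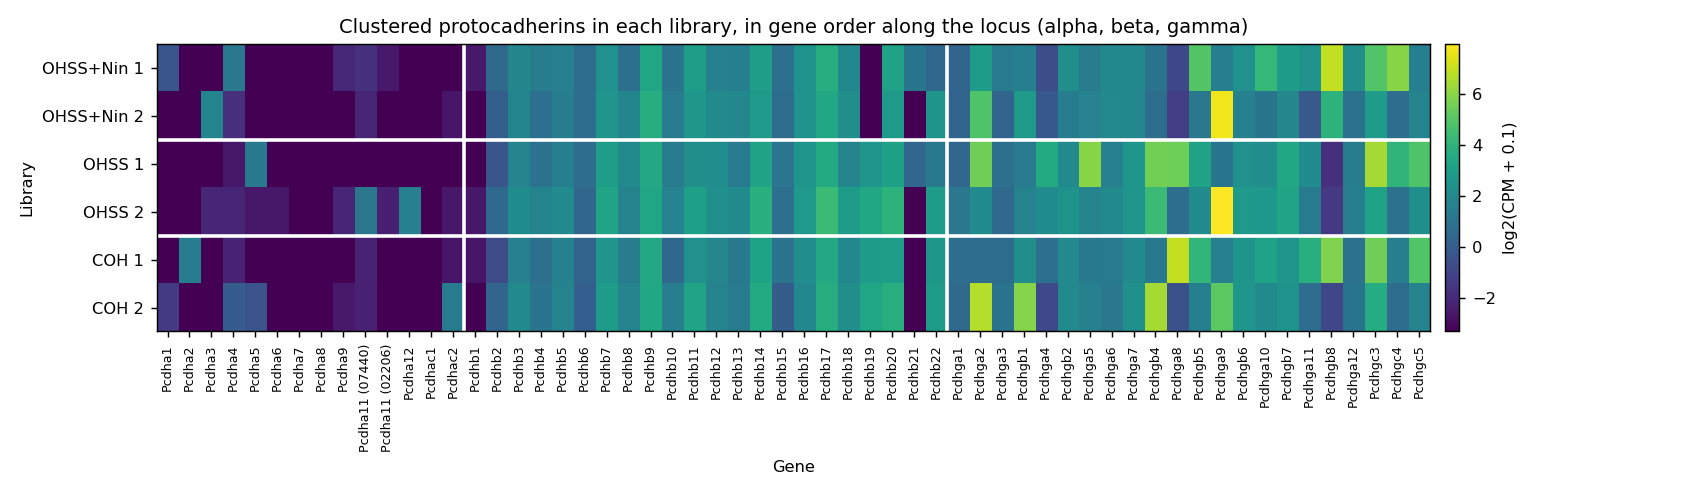
Level of each of the 58 clustered protocadherins (columns, in order along the locus, with white lines between the alpha, beta and gamma clusters) in each library (rows, OHSS+Nin at the top, then OHSS, then COH), as log2(CPM + 0.1) in colour. Most beta genes hold nearly the same colour down each column. Pcdhb1 is dark throughout, Pcdhb19 in OHSS+Nin and Pcdhb21 in 4 libraries, and Pcdhb22 varies by 5.89 times. Many alpha and gamma genes change colour from library to library. Among the others, 8 gamma genes stay within a ratio of 3, and Pcdha7, Pcdha8 and Pcdhac1 have no counts.

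Pcdhb19, a beta-type adhesion protein, had 0 and 0 counts in the OHSS+Nin libraries, 188 and 314 counts in the OHSS libraries and 261 and 280 counts in the COH libraries. As levels these are 0 and 0 CPM in OHSS+Nin, 6.04 and 10.4 CPM in OHSS, and 7.33 and 9.80 CPM in COH. Both OHSS+Nin libraries lay below every other library, and the OHSS and COH libraries overlapped. At the floor of 6 counts per library, the OHSS+Nin mean was at least 41.5-fold lower than the OHSS mean of 8.20 ± 3.05 CPM and at least 43.4-fold lower than the COH mean of 8.56 ± 1.75 CPM (SD, n = 2 each). Among all 51826 genes, Pcdhb19 was the only one with 0 counts in both OHSS+Nin libraries and at least 50 counts in each of the other 4, which restates the values behind the choice and supports nothing. Between OHSS and COH, a comparison that the choice did not use, although it shares the OHSS libraries, the log2 fold change of Pcdhb19 was -0.06 (SE 0.361, adjusted p = 0.975, edgeR's quasi-likelihood test).

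The neighbours of Pcdhb19 along the cluster carried counts in all 6 libraries. Pcdhb18, whose annotated end lies 2485 bases before Pcdhb19, had 3.78 and 4.77 CPM in OHSS+Nin, 3.37 and 7.12 CPM in OHSS, and 3.74 and 4.62 CPM in COH. Pcdhb20, which begins 135 bases after it, had 8.77 and 6.54 CPM in OHSS+Nin, 8.74 and 15.7 CPM in OHSS, and 7.81 and 13.7 CPM in COH. For both neighbours the 3 groups overlapped, so the zero of Pcdhb19 was not shared by the genes on either side of it. In the GENCODE M21 annotation, Pcdhb19 has 7138 exonic bases, of which 0% lie in the exons of another member, and 0.24% of its 100-base exonic windows have an exact copy in another gene. Without Pcdhb19, which made up 6.22 to 8.58% of beta counts in the OHSS and COH libraries, the family summed to 410.2 and 397 CPM in OHSS+Nin, 488 and 486 CPM in OHSS, and 421 and 448 CPM in COH.

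A second place of zeros lay at the far end of the beta cluster. Pcdhb21 had 57 and 0 counts in OHSS+Nin, 38 and 0 counts in OHSS, and 0 and 0 counts in COH. Its neighbour Pcdhb22 had 36 and 179 counts in OHSS+Nin, 69 and 223 counts in OHSS, and 217 and 196 counts in COH. Thus Pcdhb22 was lowest in the 2 libraries that had any count of Pcdhb21, the first replicate of OHSS+Nin and the first replicate of OHSS. These 2 genes share 455 exonic bases in the annotation, the only overlap between beta members, and which reads were given to which gene was not tested. Their joint counts were 93 and 179 in OHSS+Nin, 107 and 223 in OHSS, and 217 and 196 in COH.

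The other beta genes kept a steady order from library to library. Per kilobase of annotated exon, the highest mean levels were those of Pcdhb9 with 3.56 CPM per kb, Pcdhb20 with 2.87 and Pcdhb17 with 2.84, while Pcdhb19 averaged 0.783 over all 6 libraries with its zeros included. Over the 19 beta members with at least 1 mean CPM and no zero, the highest library exceeded the lowest by 1.34 to 5.89 times, with a median of 1.99 times. All 19 stayed below 10 times. Of the 14230 tested genes without a zero and with a mean of 1 to 150 CPM, 2.65% exceeded it, and their median was 1.56 times. The 5.89 times belonged to Pcdhb22. Across the 21 tested beta genes, Spearman's rho of CPM between 2 libraries ran from 0.61 to 0.97 with a median of 0.81 over 15 pairs of libraries, a description across genes that differ in length and share each library's depth.

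**Figure D2:**
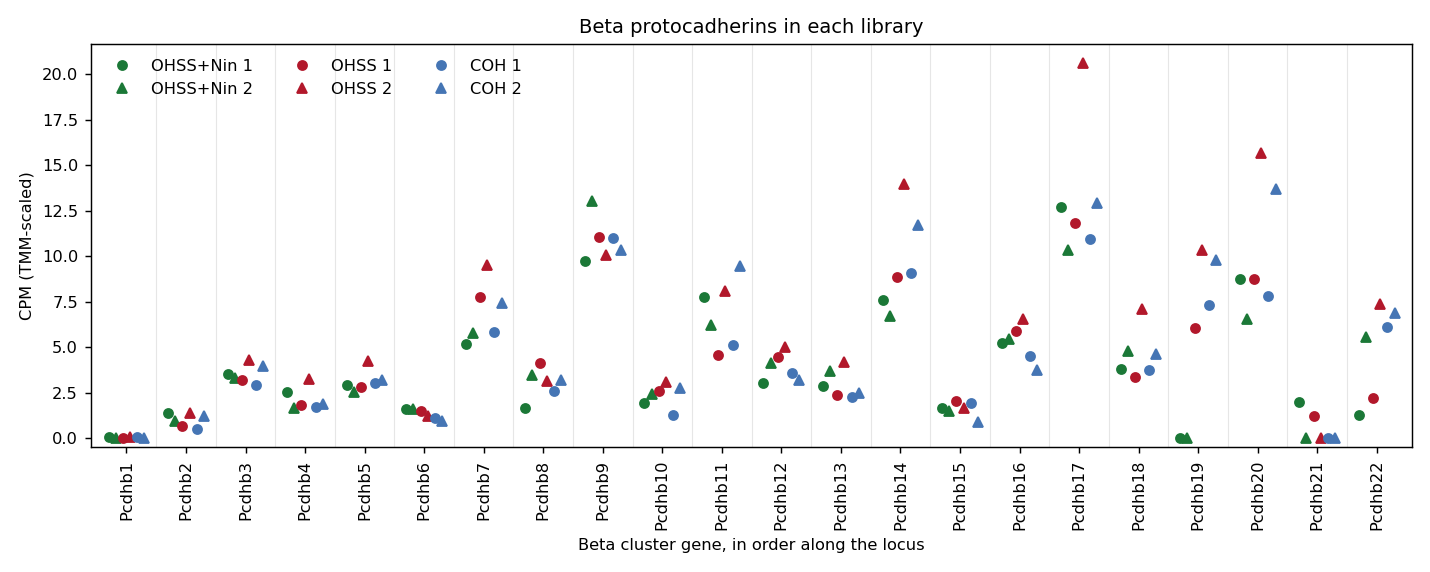
Level in CPM of each beta gene (horizontal axis, in order along the locus) in each library, OHSS+Nin in green, OHSS in red and COH in blue, with circles for replicate 1 and triangles for replicate 2. Pcdhb19 lies at 0 in both OHSS+Nin libraries, and the second OHSS library is the highest for Pcdhb14, Pcdhb17 and Pcdhb20.

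Among the highest beta genes, Pcdhb17 had 12.7 and 10.4 CPM in OHSS+Nin, 11.9 and 20.6 CPM in OHSS, and 10.95 and 12.9 CPM in COH. Pcdhb9 had 9.74 and 13.02 CPM in OHSS+Nin, 11.1 and 10.1 CPM in OHSS, and 10.98 and 10.3 CPM in COH. Pcdhb9 was the steadiest beta gene, with its highest library 1.34 times its lowest, and Pcdhb17 stood out only in the second OHSS library. Pcdhb14 had 7.59 and 6.73 CPM in OHSS+Nin, 8.87 and 14.0 CPM in OHSS, and 9.07 and 11.7 CPM in COH. Pcdhb7 had 5.16 and 5.79 CPM in OHSS+Nin, 7.77 and 9.50 CPM in OHSS, and 5.84 and 7.42 CPM in COH. For Pcdhb14 and Pcdhb7 both OHSS+Nin libraries lay below the other 4, and for Pcdhb7 the OHSS and COH libraries did not overlap either. Pcdhb11 had 7.76 and 6.23 CPM in OHSS+Nin, 4.59 and 8.08 CPM in OHSS, and 5.11 and 9.45 CPM in COH, with all groups overlapping. Pcdhb16 had 5.23 and 5.45 CPM in OHSS+Nin, 5.88 and 6.56 CPM in OHSS, and 4.49 and 3.74 CPM in COH, with no overlap between any of the 3 groups. Pcdhb6 showed no overlap either, with 1.59 and 1.59 CPM in OHSS+Nin, 1.51 and 1.22 CPM in OHSS, and 1.10 and 0.945 CPM in COH. Such separation is common with 2 libraries a group. Of all tested genes, 44.1% did not overlap between OHSS and COH, 36.2% between OHSS+Nin and OHSS, and 45% between OHSS+Nin and COH. The 11 beta genes of lower level (Pcdhb2 to Pcdhb6, Pcdhb8, Pcdhb10, Pcdhb12, Pcdhb13, Pcdhb15 and Pcdhb18) ran from 0.506 to 7.12 CPM in a library. In the OHSS group, 16 of 20 beta genes were higher in replicate 2 than in replicate 1, in COH 15 of 20, and in OHSS+Nin 9 of 19. The same share over all tested genes was not counted, so these numbers are not read as a trait of beta genes.

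The gamma genes behaved differently from the beta genes in this respect: a few of them held most of the cluster's counts in each library, and these were not the same few. In OHSS+Nin, the first library had 3512 counts of Pcdhgb8 (38.1% of its gamma counts) and 1745 of Pcdhgc4, whereas the second had 6695 counts of Pcdhga9 (68.8%). In OHSS, the first library had 2667 counts of Pcdhgc3 (21.7%), 1916 of Pcdhga5 and 1431 of Pcdhgb4, whereas the second had 7460 counts of Pcdhga9 (70.4%). In COH, the first library had 4238 counts of Pcdhga8 (35.7%) and 1955 of Pcdhgb8, whereas the second had 2954 counts of Pcdhga2 (30.4%), 2426 of Pcdhgb4 and 1693 of Pcdhgb1. The leading gamma gene thus differed between the 2 libraries of every group, and Pcdhga9 led in 1 OHSS+Nin and 1 OHSS library.

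**Figure D3:**
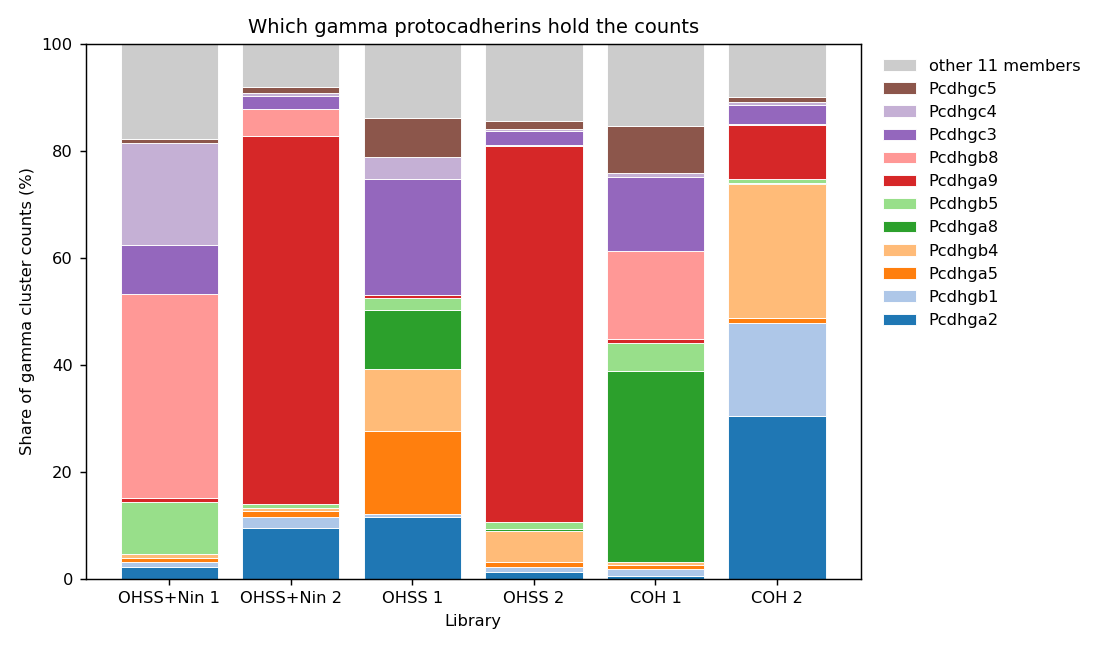
Share of all gamma cluster counts, in percent, held by each of 11 gamma genes (colours) and by the other 11 together (grey) in each library, with OHSS+Nin on the left, then OHSS, then COH. Pcdhga9 takes 68.8% in the second OHSS+Nin library and 70.4% in the second OHSS library, and other genes lead in the remaining 4 libraries.

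Single gamma genes differed widely between libraries. Pcdhgb8, annotated as a polymorphic pseudogene, had 121.7 and 15.5 CPM in OHSS+Nin, 0.193 and 0.264 CPM (6 and 8 counts) in OHSS, and 54.9 and 0.420 CPM in COH. Pcdhga9 had 2.70 and 209 CPM in OHSS+Nin, 1.99 and 246 CPM in OHSS, and 2.89 and 34.2 CPM in COH. Both spanned more than 100 times between their highest and lowest libraries, with ratios of 631.5 for Pcdhgb8 and 123.5 for Pcdhga9, and in each group the second replicate had more Pcdhga9 than the first. Pcdhga8 had 0.451 and 0.311 CPM in OHSS+Nin, 43.2 and 1.58 CPM in OHSS, and 119 and 0.595 CPM in COH. Pcdhga2 had 7.21 and 28.7 CPM in OHSS+Nin, 45.3 and 4.29 CPM in OHSS, and 1.52 and 103.4 CPM in COH. Pcdhga8 and Pcdhga2 each reached their highest level in a COH library while the other COH library held under 2 CPM. Pcdhgc3, a C-type gamma isoform that binds Axin1 and takes part in dendrite branching in mouse cortical neurons, had 29.7 and 7.41 CPM in OHSS+Nin, 85.7 and 9.13 CPM in OHSS, and 45.6 and 12.6 CPM in COH. In all 3 groups its level was higher in the first library than in the second. Pcdhgc4, a C-type isoform needed for the survival of spinal interneurons in mice, had 60.5 and 1.59 CPM in OHSS+Nin, 16.4 and 1.78 CPM in OHSS, and 2.75 and 1.54 CPM in COH, so that it was high in 1 OHSS+Nin and 1 OHSS library. Pcdhgc5, a C-type isoform known to bind GABA-A receptors in neurons, had 2.81 and 3.30 CPM in OHSS+Nin, 28.9 and 4.78 CPM in OHSS, and 29.1 and 3.18 CPM in COH, so that it was high in 1 OHSS and 1 COH library. Pcdhgb4 had 1.94 and 1.59 CPM in OHSS+Nin, 46.0 and 20.1 CPM in OHSS, and 2.27 and 84.9 CPM in COH, so that both OHSS+Nin libraries lay below the other 4. Within a group, the largest ratio between the 2 libraries was 77.1 in OHSS+Nin and 123.5 in OHSS, both for Pcdhga9, and 200.05 in COH, for Pcdhga8.

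Over the 22 gamma genes, the highest library exceeded the lowest by 1.59 to 631.5 times, with a median of 12.8 times, and 13 of 22 (59.1%) exceeded 10 times. Of the same 14230 genes with a mean of 1 to 150 CPM, 2.65% did so. The protocadherins outside the clusters, which have no shared constant exons with the family, exceeded 10 times in 1 of 10 genes with a median of 2.32 times. Of the 132 gamma values (22 genes in 6 libraries), 21 lay above 3 times the gene's own median, and these 21 held 70.8% of all gamma counts (65.1 to 74.3% per library). Of the 126 values of the 21 tested beta genes, 2 did so, both of Pcdhb21, whose median was 0, and they held 0.494% of beta counts. Spearman's rho across the 22 gamma genes was -0.05 to 0.74 between 2 libraries, with a median of 0.16 over 15 pairs.

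The same contrast appeared in the composition of each cluster, as the percentage of counts that 2 libraries placed on the same genes. Within a group the gamma compositions overlapped by 22.9% in OHSS+Nin, 26.9% in OHSS and 19.7% in COH. The beta compositions overlapped by 85.9% in OHSS+Nin, 86.5% in OHSS and 90.7% in COH. The highest gamma overlap, 85.3%, was between the second OHSS+Nin library and the second OHSS library, which belong to different groups. Between libraries of different groups, the 6 pairs with the same replicate number shared 31.9 to 85.3% of gamma counts and the 6 pairs with different numbers 20.8 to 40.3%, of which 5 lay at 20.8 to 24.5%. Libraries of the same number but different groups were thus more alike in gamma composition than libraries of 1 group, and the labels used here do not say what a replicate number stands for.

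Despite this, the summed gamma level was steady. The 22 gamma genes summed to 319.8 and 303 CPM in OHSS+Nin, 395 and 349 CPM in OHSS, and 333 and 339.6 CPM in COH, and the highest library exceeded the lowest by 1.302 times. Both OHSS+Nin libraries had the lowest sums and both OHSS libraries the highest, with the 3 groups not overlapping. Between 2 groups, 36.2 to 45% of all tested genes did not overlap, depending on the comparison. The log2 ratio of group means was 0.15 for OHSS against COH, -0.26 for OHSS+Nin against OHSS and -0.11 for OHSS+Nin against COH, on 2 libraries a group and with no test. The first and the last of these depend on where Pcdhga9, the highest gamma gene, was high: without it they were -0.36 for OHSS against COH and -0.63 for OHSS+Nin against COH, while OHSS+Nin against OHSS was -0.27. A set of 8 gamma genes never exceeded a ratio of 3 between libraries (Pcdhga1, Pcdhga3, Pcdhgb2, Pcdhga6, Pcdhga7, Pcdhgb6, Pcdhgb7 and Pcdhga12), picked here for that steadiness. Pcdhga7, the steadiest, had 3.71 and 3.71 CPM in OHSS+Nin, 5.88 and 5.74 CPM in OHSS, and 4.10 and 5.005 CPM in COH. The 8 summed to 32.8 and 20.9 CPM in OHSS+Nin, 33.8 and 37.4 CPM in OHSS, and 26.6 and 27.8 CPM in COH.

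**Figure D4:**
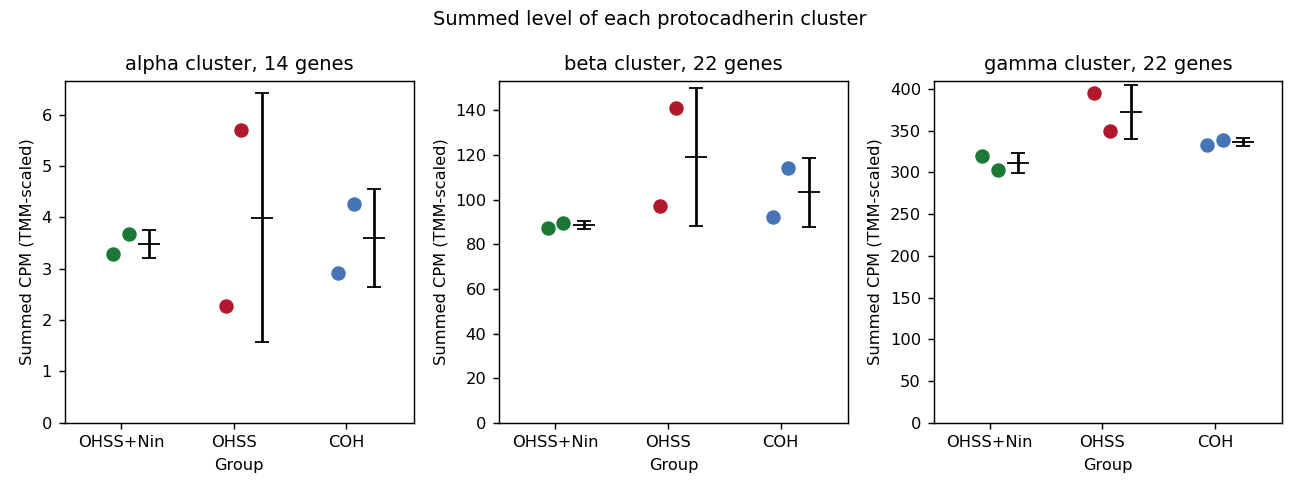
Summed level in CPM of the 14 alpha, 22 beta and 22 gamma genes in each library (points), by group, with OHSS+Nin on the left, then OHSS, then COH; bars give the mean and SD of the 2 libraries, and each panel has its own scale from 0. The gamma sums run from 303 to 395 CPM, and the second OHSS library has the highest alpha and beta sums.

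The beta genes together summed to 87.1 and 89.7 CPM in OHSS+Nin, 97.2 and 141 CPM in OHSS, and 92.3 and 114 CPM in COH. The OHSS+Nin libraries had the lowest sums, and OHSS and COH overlapped. Leaving out Pcdhb19, Pcdhb21 and Pcdhb22, the other 19 beta genes summed to 83.9 and 84.1 CPM in OHSS+Nin, 87.7 and 123 CPM in OHSS, and 78.9 and 97.6 CPM in COH, which placed OHSS+Nin within the range of COH. The log2 ratio of the beta sum was 0.20 for OHSS against COH, -0.43 for OHSS+Nin against OHSS and -0.22 for OHSS+Nin against COH. Without the second OHSS library the first of these was -0.09 and OHSS+Nin against OHSS was -0.14. OHSS+Nin against COH was -0.06 without the second COH library, and -0.07 without the 3 genes just named.

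The alpha genes showed the alternation of the gamma genes at far lower counts. They summed to 95 and 118 counts in OHSS+Nin, 71 and 173 counts in OHSS, and 104 and 122 counts in COH, and each library put most of them on another gene. In OHSS+Nin, Pcdha4 led the first library with 63 counts (66.3%) and Pcdha3 the second with 106 (89.8%). In OHSS, Pcdha5 led the first library with 69 counts (97.2%) and Pcdha12 the second with 89 (51.4%), followed there by 63 counts of Pcdha11 under ENSMUSG00000007440. In COH, Pcdha2 led the first library with 94 counts (90.4%) and Pcdhac2, a C-type isoform known for axon tiling of serotonergic neurons in mice, the second with 66 (54.1%). Pcdha4, the highest of the alpha genes by mean level, had 63 and 6 counts in OHSS+Nin, 2 and 4 counts in OHSS, and 4 and 25 counts in COH. Pcdha5 had 0 and 0 counts in OHSS+Nin, 69 and 2 counts in OHSS, and 0 and 18 counts in COH, so a high count in 1 library went with a low one in the other library of its group. Others were nearly confined to 1 library: Pcdha2 had 94 counts in the first COH library and 0 in the other 5, and Pcdha12 had 89 in the second OHSS library and 0 in the other 5. Pcdha3 had 0 and 106 counts in OHSS+Nin, 0 and 4 counts in OHSS, and 0 and 0 counts in COH. Pcdha7, Pcdha8 and Pcdhac1 had no count in any library, and Pcdha1, Pcdha6, Pcdha9 and the second Pcdha11 entry (ENSMUSG00000102206) reached at most 20 counts in a library. As levels the alpha sums were 3.29 and 3.68 CPM in OHSS+Nin, 2.28 and 5.70 CPM in OHSS, and 2.92 and 4.27 CPM in COH, with the groups overlapping.

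The annotation also sets the clusters apart. In GENCODE M21 all 58 members lie on chromosome 18, and 2860 exonic bases belong to all 14 alpha members and 2116 to all 22 gamma members. The part of a member's exonic bases that other members also hold was 38.0 to 54.9% for alpha genes, 27.8 to 66.8% for gamma genes and 0 to 9.67% for beta genes. Reads from those shared exons cannot be placed on 1 member from their position, and how they were assigned is not given in the sources used here. The count of a single alpha or gamma gene is therefore uncertain, and the part of read assignment in the alternation was not tested. The table's own annotation gives homophilic cell adhesion to all 58 members, and the cadherin class of its orthologous groups to 21 of 22 beta genes, 1 alpha gene and 1 gamma gene. The exonic part shared was 31.8% for Pcdhga12 and 45.2% for Pcdhgb6, 45.9% for Pcdhgb8, 47.1% for Pcdhga8 and 37.9% for Pcdhga9. These genes share 2116 to 2227 exonic bases, so the percentage depends largely on each gene's own length. Gm38182, a transcript in no list here whose exons lie wholly within gamma members, had 3 and 0 counts in OHSS+Nin, 9 and 551 counts in OHSS, and 22 and 10 counts in COH.

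**Figure D5:**
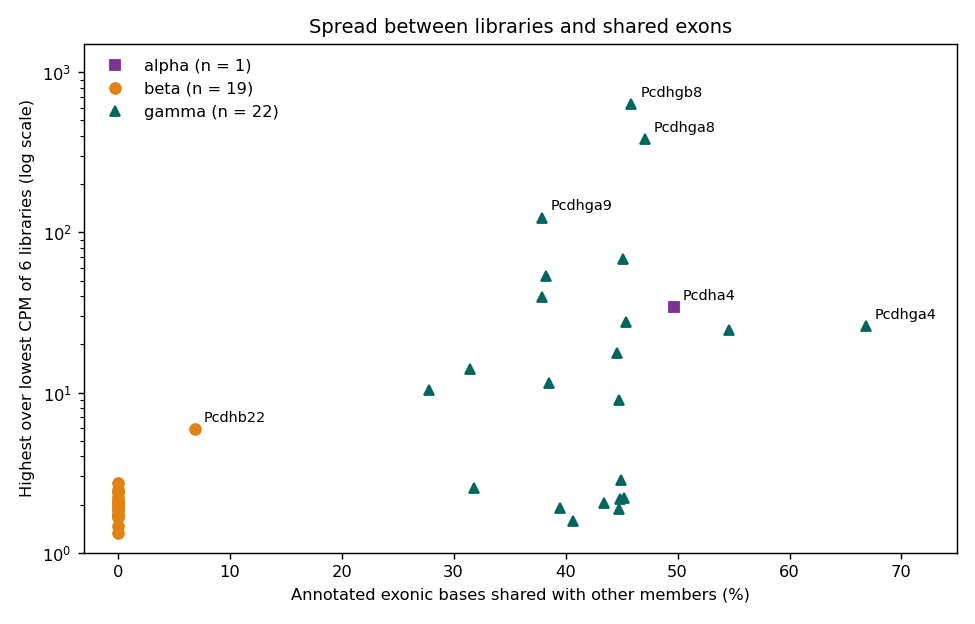
Highest over lowest CPM of the 6 libraries (vertical axis, log scale) against the percentage of a member's annotated exonic bases that other members share (horizontal axis), 1 point per tested member without a zero (purple squares alpha, orange circles beta, green triangles gamma). Beta genes lie at the lower left, and gamma genes range from 1.59 to 631.5 times at 27.8 to 66.8% sharing.

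In the comparison of OHSS with COH, edgeR called 0 of the 45 tested members at an adjusted p under 0.05, against 0.0105% of the 19027 genes tested. At an unadjusted p under 0.05 it held 5 of 45 (11.1%), 3 higher and 2 lower, against 8.82% of all tested genes. DESeq2 called 1 of 50 members, Pcdhga4, against 1.42% of its tested genes, and limma voom called 0 members and 0% of genes. The groups did not overlap for 13 of 45 members (28.9%), 11 higher and 2 lower in OHSS, against 44.1% of all tested genes. Each share of members was within 3 percentage points of its background or below it, and members of a cluster that share exons are not independent of one another.

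The 5 members with the smallest p were not alike. Pcdhga4 had 0.555 and 0.747 CPM in OHSS+Nin, 11.8 and 4.32 CPM in OHSS, and 1.63 and 0.455 CPM in COH. Both OHSS libraries lay above the other 4, with a log2 fold change of 2.93 against COH (SE 0.767, edgeR adjusted p = 0.527, DESeq2 adjusted p = 0.00877, voom adjusted p = 0.557). Pcdhga5 had 2.63 and 3.08 CPM in OHSS+Nin, 61.6 and 3.30 CPM in OHSS, and 2.22 and 2.87 CPM in COH, so that its log2 fold change of 3.67 (SE 1.28, adjusted p = 0.542 by edgeR) rested on the first OHSS library and was 0.39 without it. Pcdhgb1 had 2.81 and 6.57 CPM in OHSS+Nin, 2.41 and 3.20 CPM in OHSS, and 4.58 and 59.3 CPM in COH, so that its log2 fold change of -3.51 (SE 1.21, adjusted p = 0.542 by edgeR) rested on the second COH library and was -0.70 without it. Pcdhgb8, with the values given above, had a log2 fold change of -6.90 (SE 2.53, adjusted p = 0.547 by edgeR), and without the first COH library, at 54.9 CPM, it was -0.87. Pcdhb16, the only beta gene of the 5, had a log2 fold change of 0.59 (SE 0.217, adjusted p = 0.547 by edgeR) with groups that did not overlap.

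Read as a family, 31 of the 45 tested members had a higher fitted mean in OHSS and 14 a lower one, and the median log2 fold change was 0.28, beside -0.003 over all genes tested. Among beta genes 17 of 21 were higher, with a median of 0.33, and among gamma genes 13 of 22, with a median of 0.12. The median rested on the second OHSS library: without it the median of all tested members was -0.02. The highest beta genes outside the list above were all short of the test, with log2 fold changes of 0.45 for Pcdhb17 (SE 0.300), 0.38 for Pcdhb7 (SE 0.226), 0.19 for Pcdhb20 (SE 0.403), 0.14 for Pcdhb14 (SE 0.278), -0.01 for Pcdhb9 (SE 0.198) and -0.20 for Pcdhb11 (SE 0.414), and edgeR adjusted p-values from 0.670 to 0.991.

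The comparisons with nintedanib were used by the choice of the family, so the following counts are a description and nothing is read from them. They share the OHSS+Nin libraries with each other and the OHSS or COH libraries with the comparison above. Of the 44 tested members other than Pcdhb19, edgeR called 0 for OHSS+Nin against OHSS (0.00526% of all tested genes) and 0 for OHSS+Nin against COH (0.0263%). At an unadjusted p under 0.05 there were 6 against OHSS (13.6%, beside 7.42% of all tested genes) and 3 against COH (6.82%, beside 9.7%). Of 49 members that it tested besides Pcdhb19, DESeq2 called 2 against OHSS (4.08%, beside 0.948% of all genes it tested). These were Pcdhga4, lower in OHSS+Nin, and Pcdhgb8, higher. DESeq2 called 0 against COH, beside 1.83% of all genes it tested. Limma voom called 0 in both (0.00526% of genes against OHSS and 0.0105% against COH). The groups did not overlap for 18 members against OHSS, 3 higher and 15 lower in OHSS+Nin (40.9%, beside 36.2% of all tested genes). Against COH they did not overlap for 13, 4 higher and 9 lower (29.5%, beside 45%). The median log2 fold change of these 44 members was -0.33 against OHSS and -0.03 against COH, beside 0.01 and -0.001 over all genes tested.

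Genes that act on or beside the clusters were counted from lists, and edgeR called 0 members of each list in each of the 3 comparisons. The 12 protocadherins outside the clusters summed to 83.0 to 97.8 CPM in OHSS+Nin, 86.9 to 87.6 CPM in OHSS and 100.6 to 108.01 CPM in COH. Of their 11 tested genes, 2 had an unadjusted p under 0.05 for OHSS against COH, where 8.82% of all tested genes did. Pcdh18 had 17.2 and 18.4 CPM in OHSS+Nin, 18.2 and 17.9 CPM in OHSS, and 25.4 and 28.1 CPM in COH, and its log2 fold change for OHSS against COH was -0.57 (SE 0.128, adjusted p = 0.502 by edgeR). Pcdh9 had 2.63 and 3.36 CPM in OHSS+Nin, 4.92 and 4.65 CPM in OHSS, and 2.75 and 2.20 CPM in COH, with a log2 fold change of 0.95 (SE 0.273, adjusted p = 0.533 by edgeR). Pcdh18 was thus lower in the 4 OHSS and OHSS+Nin libraries than in COH, and Pcdh9 higher in OHSS than in the other 4 libraries, neither past the adjusted threshold.

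Of the 25 regulators of the clusters, among them Ctcf, the cohesin subunits and the DNA methyltransferases, 25 were tested, and 3 had an unadjusted p under 0.05 for OHSS against COH, beside 8.82% of all tested genes. These were Mau2, a cohesin loader, with a log2 fold change of 0.31 (SE 0.106), Dnmt3b, a de novo DNA methyltransferase, with -0.49 (SE 0.167), and Trim28, a corepressor, with -0.26 (SE 0.0915), each at an adjusted p of 0.542 by edgeR. The median log2 fold change of the 25 was 0.005 for OHSS against COH, 0.08 for OHSS+Nin against OHSS and 0.06 for OHSS+Nin against COH. Dnmt3b had 9.74 and 9.19 CPM in OHSS+Nin, 8.0 and 7.06 CPM in OHSS, and 10.8 and 10.3 CPM in COH, the OHSS libraries being the lowest. Of the 24 partners and signalling proteins, 2 had an unadjusted p under 0.05 for OHSS against COH (8.82% of all tested genes) and DESeq2 called 1 (1.42% of its tested genes). The smallest p was that of Abl1, a tyrosine kinase. Abl1 had 169 and 147 CPM in OHSS+Nin, 91.2 and 96.6 CPM in OHSS, and 151 and 158 CPM in COH. Its log2 fold change for OHSS against COH was -0.72 (SE 0.111, adjusted p = 0.351 by edgeR), with both OHSS libraries below the other 4.

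Among the 18 genes beside the clusters, 17 were tested, and their summed level ran from 598 to 632 CPM in OHSS+Nin, 613 to 617 CPM in OHSS and 622 to 650.4 CPM in COH. Taf7, a subunit of the general transcription factor TFIID whose gene lies between the beta and gamma genes, had 10.2 and 16.8 CPM in OHSS+Nin, 10.3 and 11.3 CPM in OHSS, and 11.9 and 10.8 CPM in COH. The 3 groups overlapped for Taf7, with a log2 fold change for OHSS against COH of -0.08 (SE 0.265, adjusted p = 0.953 by edgeR).

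Nerve cells, in which the family is best known, were followed by their markers. The 12 neuronal markers summed to 80.5 to 100.8 CPM in OHSS+Nin, 75.2 to 137 CPM in OHSS and 93.6 to 95.5 CPM in COH, and most of this came from Uchl1 and Tubb3. Syt1, a calcium sensor of synaptic vesicles, had 4.33 and 10.8 CPM in OHSS+Nin, 16.0 and 7.39 CPM in OHSS, and 8.17 and 8.54 CPM in COH. Snap25, of the vesicle fusion machinery, had 0.173 and 0.125 CPM in OHSS+Nin, 0.707 and 6.66 CPM in OHSS, and 0.618 and 0.245 CPM in COH, with an unadjusted p of 0.0377 and an adjusted p of 0.547 for OHSS against COH by edgeR. Snap25 was highest in the second OHSS library, which also had the highest beta sum but, at 75.2 CPM, the lowest neuronal sum. Uchl1 stood at 30.9 CPM there and Tubb3 at 23.0 CPM, against 71.3 and 43.1 CPM in the first OHSS library. The neurofilament gene Nefl and Dbh, of noradrenergic neurons, were each at 0 in 5 of 6 libraries. The 10 Schwann and glial markers summed to 93.4 to 129.5 CPM in OHSS+Nin, 156 to 191 CPM in OHSS and 146 to 155 CPM in COH, with Sox10, a defining marker, at 0.0562 to 0.396 CPM. Only 6 of these 10 markers passed the test's filter on low counts. The glial sum and the beta sum were both lowest in OHSS+Nin. That beta sum includes the zeros of Pcdhb19, on which the family was chosen, so nothing is read from the parallel. Without Pcdhb19, Pcdhb21 and Pcdhb22, the beta sums of OHSS+Nin (83.9 and 84.1 CPM) lay within those of COH (78.9 and 97.6 CPM). In OHSS, the first library had the higher glial sum and the second the higher beta sum. The part of nerve and glial cells in the protocadherin levels was not tested.

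Marker sums of other cell types also stood apart in some groups, given here without a test. Summed granulosa markers stood at 5217 to 5384 CPM in OHSS+Nin, 3544 to 3551 CPM in OHSS and 3195 to 3396 CPM in COH. Summed stromal and theca markers stood at 5136 to 6660.0 CPM in OHSS+Nin, 4427 to 6007 CPM in OHSS and 5088 to 5292 CPM in COH. Granulosa markers were higher in OHSS+Nin than in all other libraries, and stromal markers overlapped. Summed luteal markers stood at 27177 to 29684 CPM in OHSS+Nin, 35566 to 38597 CPM in OHSS and 28367 to 29861 CPM in COH. Summed endothelial markers stood at 787 to 798 CPM in OHSS+Nin, 627 to 644 CPM in OHSS and 722 to 739.95 CPM in COH. Luteal markers were highest and endothelial markers lowest in OHSS. That group also had the highest gamma sums, but without Pcdhga9 the log2 ratio of the gamma sum was -0.36 for OHSS against COH. The part of these cell types in the protocadherin levels was not tested.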

How the data were processed

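The authors deposited a table of raw gene counts (51826 genes, 6 libraries) with symbols and annotation, and a summary of reads per library, given in other units and used here only for depth (38504916 to 47163764 reads). Per the submitters' processing notes, StringTie 1.3.3b, HISAT2 2.1.0 and Trimmomatic 0.36 were used, with build mm8. Not given in the sources used here are the program that counted, the gene models it used, and how it handled strand and reads with several positions, and no coordinates are printed for that reason. Members and gene lists were chosen with earlier results of these data known.

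In R 4.3.3, edgeR 4.0.16 kept 19027 genes by filterByExpr. All 6 libraries entered 1 quasi-likelihood model of group with TMM scaling and two-sided tests (3 residual and 2.41 prior degrees of freedom), adjusted by Benjamini-Hochberg over all genes tested, with SE derived from F. No exact permutation test is given, since 2 against 2 allows no p below 0.333. Alternatives were RLE, upper-quartile and library-size scaling, no filter, a stricter filter (1 CPM in 2 libraries), DESeq2 1.42.0, limma voom (3.58.1), a replicate block, fits of 2 groups, each library left out, sums without the highest member and, added after the data had been seen, sums with Gm38182 and without Pcdhb19, Pcdhb21 and Pcdhb22. The script was tested on simulated data.

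Exon sharing came from GENCODE M21 by gene ID (58 of 58 members and 99.6% of all IDs matched). Named members were Pcdhb19, the 8 highest beta genes, the 4 highest alpha and gamma genes, the 5 with the smallest p for OHSS against COH, and members with zeros in a whole group. Taf7 was named whatever its p, as were up to 4 genes of each other list by p. Other members averaging at least 1 CPM, Ctcf, Gm38182 and the cell markers named were picked after their values were seen.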

Additional observations from a re-analysis of the deposited data

How the results depend on the processing

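With 2 libraries a group, calls depended on the tool. Besides Pcdhb19, DESeq2 called 1 member for OHSS against COH, 2 for OHSS+Nin against OHSS and 0 for OHSS+Nin against COH. Of all genes it tested, DESeq2 called 1.42%, 0.948% and 1.83% in these comparisons. Limma voom, and edgeR under each setting that kept 2 libraries a group, called 0 members. The median log2 fold change of tested members ran over the fits that leave out 1 library, in which the lone library of a group is assumed to vary like the others, from -0.0163 to 0.43 for OHSS against COH, -0.56 to -0.0381 for OHSS+Nin against OHSS and -0.31 to 0.0379 for OHSS+Nin against COH. Without Pcdhga9, its highest member, the summed gamma ratio was -0.36 for OHSS against COH, with the direction turned, and -0.63 for OHSS+Nin against COH. The cause of these shifts was not tested. In OHSS against COH, the direction of Pcdhb9 turned under RLE scaling and under DESeq2 (both 0.0056), and that of Pcdhga2 under limma voom (0.40) and under the replicate block (0.55). Leaving out 1 library at a time, these folds ran from -0.51 to 0.29 for Pcdhb19, -0.0163 to 0.80 for Pcdhb17, -0.0692 to 0.0499 for Pcdhb9, -0.30 to 0.65 for Pcdhb20, -0.24 to 0.44 for Pcdhb14, -0.67 to 0.32 for Pcdhb11, -3.22 to 5.43 for Pcdhga9, -3.60 to 4.02 for Pcdhga2 and -1.66 to 1.91 for Pcdhgc3. The direction held in all of these fits for Pcdhb7 (0.22 to 0.57), Pcdhb16 (0.47 to 0.73), Pcdhga4 (2.05 to 4.13), Pcdhga5 (0.39 to 4.59), Pcdhgb8 (-7.88 to -0.87) and Pcdhgb1 (-4.40 to -0.70), although the last 3 lost most of their size without 1 library. The summed alpha and beta ratios of OHSS against COH ran from -0.66 to 0.67 and from -0.09 to 0.45, and the beta ratios of OHSS+Nin from -0.67 to -0.14 against OHSS and from -0.37 to -0.06 against COH. Replicate numbers were not treated as pairs, since the labels used here name no shared animal or batch and the correlations of deviations over all genes were -0.002 to 0.05. Among gamma genes, Pcdhga9 and Pcdhgb1 were higher in replicate 2 of all 3 groups, and Pcdhga8, Pcdhga11, Pcdhgb5, Pcdhgb7, Pcdhgc3 and Pcdhgc4 in replicate 1 of all 3. For Pcdhgb7 the difference was only 1.10 times in OHSS and 1.07 times in COH. The share of all tested genes with 1 direction in all 3 groups was not counted, so nothing is read from this list. The replicate block left 0 members called in each comparison. Depth limits the alpha cluster most, at 71 to 173 counts a library.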
